A study of Homo sapiens with 12 samples.

Results

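The 7SL, 7SK, RNase P and RNase MRP RNAs are short noncoding RNAs made by RNA polymerase III. They were followed here in human prostate cancer cells depleted of FOXA1, a forkhead transcription factor that opens chromatin for the androgen receptor. The members were the rows of the deposited gene tables named RN7SL1, RN7SL2, RN7SK, RPPH1 and RMRP. These 5 names took 6 of the 60106 rows, because RN7SK was annotated under 2 gene identifiers. The members were chosen by their levels in the VCaP siFOXA1 and NSI libraries, with their PC3 levels as the contrast and earlier results of both lines in view. Their values in both lines are therefore a description and carry no test.

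The study transfected 2 established cell lines with an siRNA against FOXA1 (siFOXA1) or a non-targeting siRNA (NSI) and collected RNA after 72 hours, with 3 libraries in each of 4 groups. VCaP, an androgen receptor-positive line from a vertebral metastasis, received 40 nM siRNA in DMEM medium, and its total RNA was made into TruSeq libraries. PC3, a line from a bone metastasis, received 20 nM siRNA in RPMI medium, and its polyadenylated RNA was made into TruSeq stranded mRNA libraries. Line, library kit, dose, medium and the strand setting of the counting cannot be told apart. No label says that the libraries of a group came from separate cultures, so the errors and p-values measure the spread between these libraries, which may be technical.

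7SL is the RNA of the signal recognition particle, which brings ribosomes that are making secreted or membrane proteins to the endoplasmic reticulum. 7SK forms a particle with the proteins MEPCE, LARP7 and HEXIM1 or HEXIM2 that holds P-TEFb, the kinase that releases paused RNA polymerase II, in an inactive state. RPPH1 encodes the RNA of RNase P, which cuts the leader from precursor tRNAs, and RMRP encodes the RNA of RNase MRP, which takes part in ribosomal RNA maturation and shares most of its proteins with RNase P. None of the RNAs ends in a long poly(A) tail, so selection for polyadenylated RNA removes most of them.

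Sequences of the rows were read from the GRCh37 genome, the build of the files, to show how far the rows can be told apart by short reads and what lies before them. RN7SL1 and RN7SL2 both lie on chromosome 14, on opposite strands. Over 297 aligned bases they differ at 4, which gives an identity of 98.65%, and this near identity decides how their counts can be read. RN7SL1 lies within an intron of RPS29, which runs on the opposite strand, and RN7SL2 lies within an intron of the row RP11-596C23.6 on the same strand.

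The rows of RN7SK overlap over 328 bases on the plus strand of chromosome 6 (chr6:52860418-52860748 for the longer row). The first 110 bases of the longer row are shown because they hold all 3 copies of GATC in it, in capitals, a motif of the stem that binds HEXIM.
RN7SK first bases: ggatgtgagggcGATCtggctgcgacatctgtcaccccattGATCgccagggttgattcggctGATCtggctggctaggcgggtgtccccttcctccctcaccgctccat
The genes of 7SK, RNase P RNA and RNase MRP RNA are known to carry their promoters outside the RNA, whereas 7SL genes also use elements within it. The 60 bases before the RN7SK row (chr6:52860358-52860417, plus strand) and the 250 bases before the RMRP row (chr9:35658016-35658265, minus strand) are therefore shown. Capitals mark the octamer ATGCAAAT, read on either strand, and TATA where it starts 35 to 25 bases before the row. TATA letters elsewhere, as in the RPPH1 stretch, are in lower case. For RPPH1 (chr14:20811207-20811844, minus strand), bases 171 to 290 of the row are shown, because the 638-base row takes in the known H1 promoter ahead of the RNA. Exons of PARP2, on the opposite strand, cover 104 bases of that row, and the PC3 counting ignored strand.
RN7SK upstream: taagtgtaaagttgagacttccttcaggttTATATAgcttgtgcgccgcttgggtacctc
RMRP upstream: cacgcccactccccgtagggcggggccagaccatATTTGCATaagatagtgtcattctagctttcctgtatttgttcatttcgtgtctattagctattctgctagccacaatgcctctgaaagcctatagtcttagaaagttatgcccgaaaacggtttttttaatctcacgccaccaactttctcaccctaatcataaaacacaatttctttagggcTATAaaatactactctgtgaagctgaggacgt
RPPH1 row bases 171 to 290: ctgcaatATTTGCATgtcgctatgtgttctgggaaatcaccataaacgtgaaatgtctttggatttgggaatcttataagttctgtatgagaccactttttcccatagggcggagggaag
TATA started 30 and 28 bases before the RN7SK row and 32 bases before the RMRP row. A TATA on the sense strand starting 35 to 25 bases before the row was found for 3.61% of all 60106 rows. The octamer started 216 bases before the RMRP row and at base 178 of the RPPH1 row, inside that row. Windows from 250 bases before to 50 bases after a row's start held the octamer on either strand in 2.15% of rows. The forkhead core letters TGTTTAC or TGTTTGC, on either strand, were in none of the windows of the 6 member rows and in 8% of all windows. For RPPH1 that window lies around the start of the row and does not reach the promoter letters inside it, which were not searched.

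In VCaP, FOXA1 itself had 489.7 ± 46.9 CPM with NSI and 80.6 ± 6.19 CPM with siFOXA1 (SD, n = 3), or 16.5% of NSI (edgeR adjusted p = 1.84e-07). In PC3 the levels were 267.9 ± 25.6 and 170.9 ± 11.5 CPM, or 63.8% of NSI (edgeR adjusted p = 0.00222). CPM values (counts-per-million) are scaled by the library total and edgeR's TMM factors, unless the library total alone is named. Library totals ranged from 48187047 to 59839211 counts in VCaP and from 123140099 to 188226483 in PC3. All 8 luminal prostate markers were above 1 CPM in every VCaP library, against 2 or 3 of the 8 in PC3, where the 5 mesenchymal markers were all above 1 CPM. In VCaP, 1 mesenchymal marker (CD44) passed 1 CPM in the NSI libraries and 2 (CD44 and LAMB3) in the siFOXA1 libraries. Scaled by the library total, the 4 leukocyte markers summed to 0.694 to 0.931 CPM in VCaP NSI and 2.31 to 3.06 CPM in siFOXA1, and to 0.224 to 0.241 and 0.422 to 0.502 CPM in PC3. Most of the VCaP sum was CD14, whereas PTPRC went from 0.0919 to 0.125 CPM in VCaP NSI to 0 to 0.0400 CPM in siFOXA1, and CD3E was at 0 in 1 library of each VCaP group. The endothelial markers found, CDH5 and VWF, summed to 3.78 to 4.75 CPM in VCaP NSI and 1.62 to 2.06 CPM in siFOXA1, nearly all VWF, and did not pass 0.298 CPM in PC3. The 3 fibroblast markers summed to 19.9 to 23.3 CPM in PC3 NSI and 34.5 to 38.5 CPM in siFOXA1, mostly COL1A1, and overlapped in VCaP at 0.650 to 4.72 and 0.617 to 4.57 CPM. The part of such cells in any result was not tested. In bulk RNA, fewer cells of a type and less RNA per cell cannot be told apart.

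In VCaP total RNA the members took a large share of the counts, and the mean of each was higher in siFOXA1, most for the 7SL pair and hardly at all for RPPH1 and RMRP. Scaled by the library total alone, they summed to 127224 to 140985 CPM in the NSI libraries and 143363 to 161844 CPM in the siFOXA1 libraries. All 6 member rows passed the filter on low counts in both lines.

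RN7SL1 was at 33385, 29459 and 38323 CPM in the VCaP NSI libraries 1, 2 and 3 and at 38244, 38740 and 44130 CPM in the siFOXA1 libraries. The groups overlapped only by the highest NSI library, which lay just above the lowest siFOXA1 library. The mean went from 33722 ± 4442 to 40371 ± 3264 CPM (SD, n = 3), a log2 fold change of 0.26 (SE 0.13). RN7SL2 was at 32236, 29238 and 36122 CPM with NSI and at 35550, 38534 and 41883 CPM in siFOXA1. Its groups overlapped in the same way, by the third NSI library. The log2 fold change of RN7SL2 was 0.25 (SE 0.12). Without the second NSI library that of RN7SL1 was 0.16.

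Reads from these near-identical genes were divided by the authors' counting, so their sum is the firmer value. The sum was 65622, 58691 and 74451 CPM with NSI and 73795, 77276 and 86011 CPM in siFOXA1. Its mean went from 66255 ± 7899 to 79027 ± 6293 CPM, a log2 fold change of 0.25 (SE 0.13), or 0.17 without the second NSI library. RN7SL1 was assigned 50.1% to 51.8% of the sum in every VCaP library, a share that the division of reads may largely set. Scaled by the library total alone, the groups of RN7SL1, RN7SL2 and their sum did not overlap, with the lowest siFOXA1 sum at 75271 and the highest NSI sum at 71610 CPM. On that scale 25.8% of all 22925 genes tested in VCaP had all siFOXA1 libraries above all NSI libraries, and with TMM scaling 27.9% did.

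RN7SK, with its identifiers summed, was at 51137, 52223 and 58351 CPM in the VCaP NSI libraries and at 54492, 57834 and 68801 CPM in siFOXA1. The third siFOXA1 library stood above all others, and the remaining ones lay within the NSI range. The NSI mean of 53904 ± 3890 CPM compared with 60376 ± 7485 CPM in siFOXA1, a log2 fold change of 0.16 (SE 0.13). Without the third siFOXA1 library it was 0.06, and 12 alternatives ranged from 0.06 to 0.23. Each identifier alone held the same value in every library, since fragments that overlapped both rows were divided between them.

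RPPH1 was at 9158, 7427 and 9324 CPM with NSI and at 8184, 8785 and 9739 CPM in siFOXA1 in VCaP. The groups lay over each other, with a log2 fold change of 0.04 (SE 0.12). RMRP was at 4266, 3804 and 4450 CPM with NSI and at 4081, 4155 and 4412 CPM in siFOXA1. All siFOXA1 libraries of RMRP lay within the NSI range, and the log2 fold change was 0.01 (SE 0.09). The sign of both small differences turned when the second NSI library was left out, to -0.06 for RPPH1 and -0.06 for RMRP. It turned too without the third siFOXA1 library, to -0.03 for RPPH1 and -0.02 for RMRP. The alternatives ranged from -0.06 to 0.10 for RPPH1 and from -0.06 to 0.06 for RMRP.

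**Figure D1:**
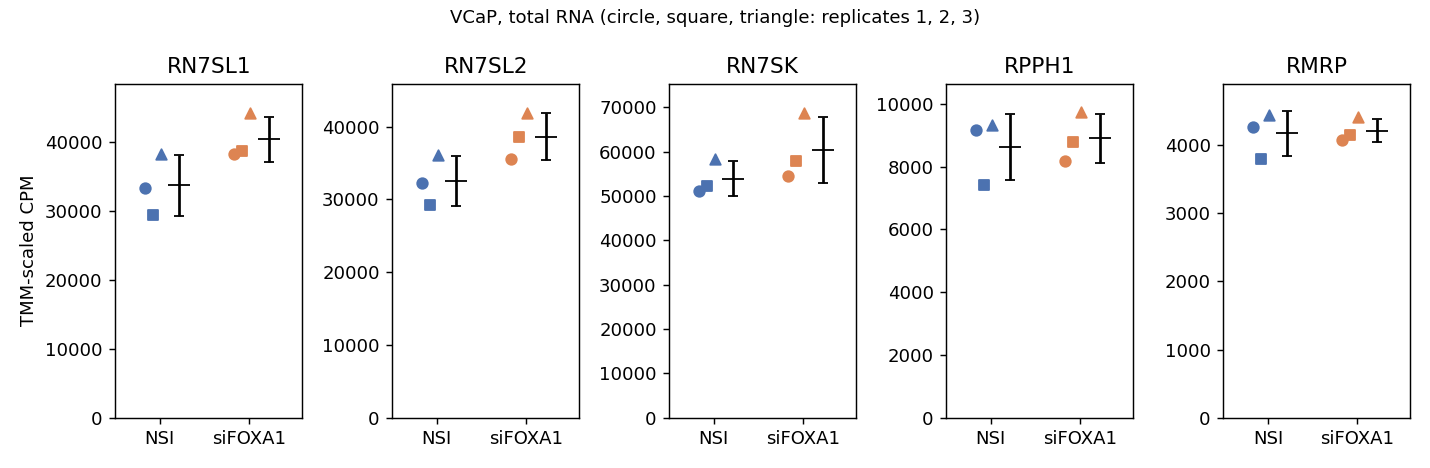
Levels of the 7SL, 7SK, RNase P and RNase MRP RNAs in VCaP total RNA, in TMM-scaled CPM on linear axes from 0. Points are libraries (circle, square and triangle for replicates 1, 2 and 3), and the bars beside them give the mean ± SD of 3. The 7SL rows sit higher in siFOXA1 with overlap by the third NSI library, and the RPPH1 and RMRP groups lie over each other.

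Per kilobase of row, RN7SK with its identifiers summed was at 162851 ± 11752 CPM per kilobase in VCaP NSI. With the 7SL rows taken singly, RN7SL1 followed at 112408 ± 14806 and RN7SL2 at 109536 ± 11621. RMRP was at 15573 ± 1242 and RPPH1 at 13537 ± 1647. RN7SL1 and RN7SL2 lay closer together than their spread. Their sum, over their mean row length, stood above RN7SK, at 221959 ± 26461 CPM per kilobase in NSI and 264748 ± 21083 in siFOXA1. RMRP was above RPPH1 in each NSI library, at 15919, 14194 and 16604 against 14354, 11640 and 14615 CPM per kilobase, although the ranges over libraries overlapped. The RPPH1 row is longer than the others and includes promoter bases, which lowers its level per kilobase. In siFOXA1 the order with single 7SL rows was the same, with RN7SK at 182403 ± 22615, RN7SL1 at 134571 ± 10881, RN7SL2 at 130154 ± 10667, RMRP at 15732 ± 647 and RPPH1 at 13954 ± 1229 CPM per kilobase.

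Ratios of counts within a library do not depend on the scaling between libraries. The 7SL sum was 15.4, 15.4 and 16.7 times RMRP in the VCaP NSI libraries and 18.1, 18.6 and 19.5 times RMRP in siFOXA1, so these ratios did not overlap. Against RPPH1 the 7SL sum was 7.17, 7.90 and 7.98 in NSI and 9.02, 8.80 and 8.83 in siFOXA1, again without overlap. RN7SK over RMRP overlapped, at 12.0, 13.7 and 13.1 in NSI and 13.4, 13.9 and 15.6 in siFOXA1. RPPH1 over RMRP, the pair of related ribonuclease RNAs, was 2.06 ± 0.101 in NSI and 2.11 ± 0.101 in siFOXA1. These ratios restate the VCaP contrast that chose the members and are given without a test.

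**Figure D2:**
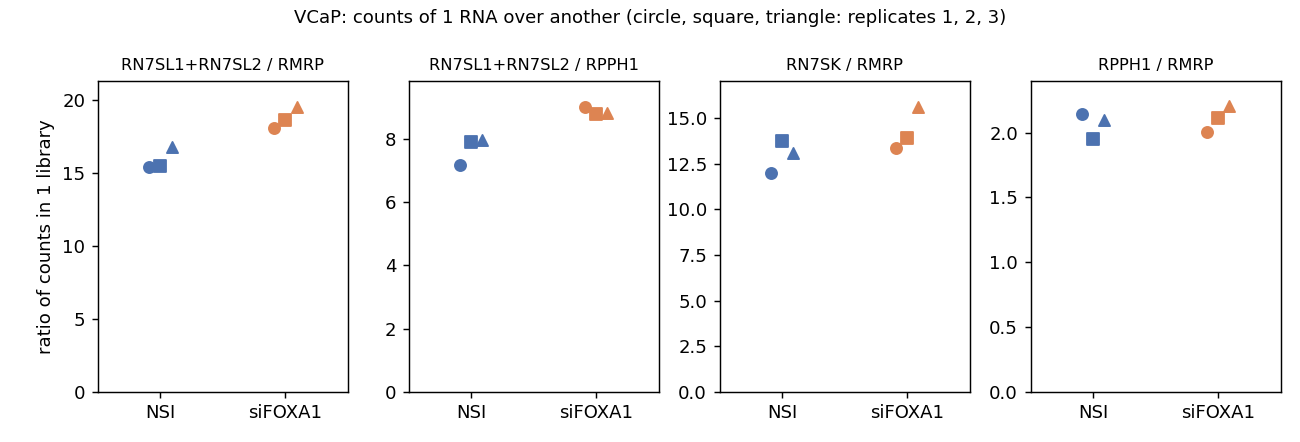
Ratios of counts between members within each VCaP library, on linear axes from 0, with a point for each library and replicates 1, 2 and 3 as circle, square and triangle. The ratios of the 7SL sum to RMRP and to RPPH1 are higher in all siFOXA1 libraries, and RPPH1 over RMRP stays near 2.06 and 2.11.

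Some other classes of RNA in the VCaP libraries differed between the groups without overlap, and others overlapped. Small nuclear RNA rows other than RN7SK summed to 52317 to 65381 CPM of the library total in NSI and 59732 to 78087 in siFOXA1, and small nucleolar RNA rows to 12926 ± 1533 and 12248 ± 1222 (SD, n = 3), with overlap in both classes. Against the small nuclear RNA sum, the 7SL pair stood at 1.11 ± 0.0511 in NSI and 1.15 ± 0.103 in siFOXA1, and RN7SK at 0.911 ± 0.112 and 0.876 ± 0.0472, all overlapping. Mitochondrial rows took 30173 to 32927 CPM of the library total in NSI and 40441 to 46929 in siFOXA1. Nuclear protein-coding rows took 673266 to 694487 CPM of the library total in NSI and 603620 to 641662 in siFOXA1. MALAT1, a long nuclear RNA, went from 19112 ± 2768 to 36078 ± 990 CPM of the library total. These last 3 did not overlap between the groups. The part of these shifts in the members' levels was not tested. With the members, their copies and mitochondrial genes left out of the library sizes, the log2 fold change of the 7SL sum stayed positive, as it did under all 12 alternatives, which ranged from 0.17 to 0.34.

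The 7SL family holds many copies beside the members. RN7SL5P, RN7SL4P and RN7SL3 were the next most abundant of its rows in VCaP, and with RN7SL1 and RN7SL2 they made up 98.0% to 98.6% of all 7SL counts. Their identity to RN7SL1 over the aligned bases was 97.64% for RN7SL3, 92.66% for RN7SL5P and 89% for RN7SL4P, so some of their counts may be reads divided with the members. RN7SL3 went from 3528, 4316 and 5367 CPM in NSI to 5564, 6070 and 5768 CPM in siFOXA1. Its groups did not overlap, and its log2 fold change was 0.40 (SE 0.14). RN7SL5P and RN7SL4P had log2 fold changes of 0.20 and 0.21. No p-value is given for these copies, since reads divided with the members may carry the values that chose the members. Of the 844 rows named as RN7SL pseudogenes, 492 were tested in VCaP. Of these, 62 were called higher and 0 lower, whereas 45.8% of all tested genes were called, 22.5% higher and 23.3% lower. Their median log2 fold change was 0.45, against 0.02 over all genes. Other noncoding rows had positive medians in VCaP too: 0.31 for small nuclear RNA rows outside the members, 0.16 for long intergenic noncoding RNA rows and 0.10 for small nucleolar RNA rows. Protein-coding rows had a median of -0.02. Of 129 tested RN7SK pseudogene rows, 4 were called higher and 0 lower, with a median of 0.18.

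**Figure D3:**
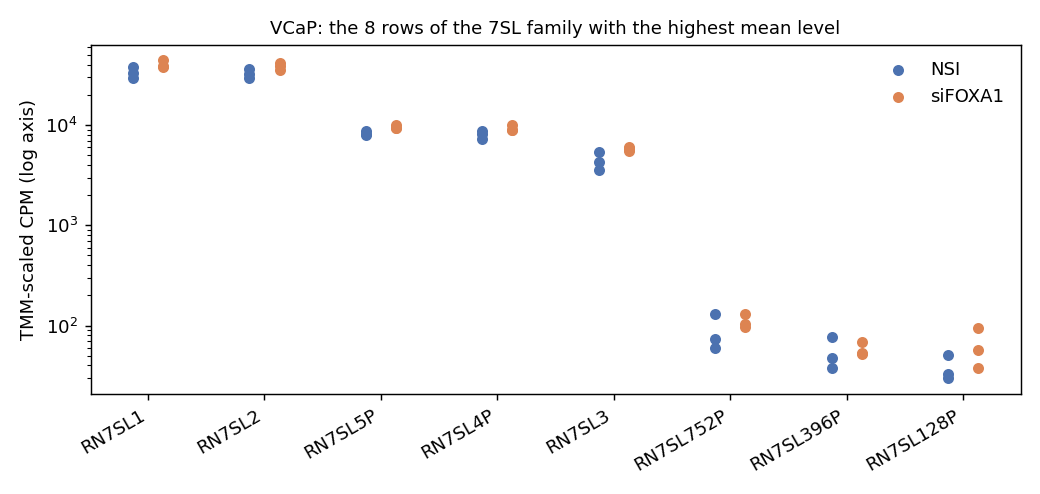
The 8 rows of the 7SL family with the highest mean level in VCaP, in TMM-scaled CPM on a log axis, with a point for each library of NSI and siFOXA1. The first 5 rows hold 98.0% to 98.6% of the family's counts, and the copies may share divided reads with the members.

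Other RNAs of polymerase III were described from a list of 11, of which 10 were tested in VCaP. RN7SL3 and BCYRN1 were called higher and 0 were called lower, where 22.5% and 23.3% of all genes were. RN7SL3 may share divided reads with the members, so its call is not separate from their values. The list's median log2 fold change was 0.25 against 0.02 over all genes. BCYRN1, a cytoplasmic RNA that regulates translation, was at 9.51, 9.54 and 8.83 CPM with NSI and 12.6, 10.4 and 11.8 CPM in siFOXA1 (log2 fold change 0.32, SE 0.09, edgeR adjusted p = 0.0181). Among those not called were the vault RNA VTRNA1-1 at 0.38 (edgeR adjusted p = 0.0635) and the Y RNAs RNY4 at 0.50 (edgeR adjusted p = 0.0680) and RNY1 at 0.02 (edgeR adjusted p = 0.929). In PC3, 4 of the list were tested and 0 were called by edgeR, where 27% of all genes were.

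In polyadenylated RNA of PC3 the members were at far lower levels, and each had a lower mean in siFOXA1. Scaled by the library total alone, they summed to 66.4 to 146.7 CPM with NSI and 50.3 to 96.0 CPM in siFOXA1. The NSI mean in VCaP was 743 times that in PC3 for the 7SL sum, 934 times for RMRP, 1588 times for RPPH1 and 5577 times for RN7SK. These ratios set cell line and kit side by side, and the lines were normalized separately.

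None of the 6 member rows had all PC3 siFOXA1 libraries below all NSI libraries, as 20.5% of 26435 tested genes did. Nothing is read from that count, since the PC3 contrast was in view when the members were chosen.

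RN7SL1 was at 63.8, 50.2 and 33.7 CPM in the PC3 NSI libraries 1, 2 and 3 and at 41.6, 28.6 and 23.5 CPM in siFOXA1. The groups overlapped, and each siFOXA1 library lay below the NSI library of its number. The log2 fold change was -0.66 (SE 0.26), and -0.43 without the first NSI library. RN7SL2 was at 52.7, 40.8 and 26.4 CPM with NSI and 40.0, 20.9 and 18.1 CPM in siFOXA1. Its log2 fold change of -0.60 (SE 0.32) was -0.36 without the first NSI library and -1.04 without the first siFOXA1 library. For the sum the value was -0.63 (SE 0.29), or -0.40 and -0.97 without those libraries. These errors come from the fit without a replicate block. With the block the values were -0.65 (SE 0.07) for RN7SL1, -0.63 (SE 0.10) for RN7SL2 and -0.64 (SE 0.08) for the sum.

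RN7SK was at 16.8, 9.05 and 3.20 CPM in the PC3 NSI libraries and at 5.73, 5.52 and 2.94 CPM in siFOXA1. The NSI libraries spread widely, and all siFOXA1 libraries lay within or below their range. The log2 fold change of -1.03 (SE 0.51) was -0.37 without the first NSI library. RPPH1 was at 9.50, 4.55 and 2.26 CPM with NSI and 3.36, 3.57 and 2.77 CPM in siFOXA1. Its log2 fold change of -0.75 (SE 0.42) was -0.076 without the first NSI library and -1.12 without the third.

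RMRP was at 7.05, 4.57 and 1.78 CPM in the PC3 NSI libraries and at 3.01, 1.70 and 1.77 CPM in siFOXA1. In replicate 3 the values of NSI and siFOXA1 were nearly equal. The log2 fold change of -1.04 (SE 0.44) was -0.55 without the first NSI library. In NSI all members were highest in library 1 and lowest in library 3. The small nuclear RNA rows other than RN7SK, which lack long poly(A) tails too, took 33.1 to 73.0 CPM of the library total in PC3 NSI and 36.2 to 42.2 in siFOXA1, and small nucleolar RNA rows 149.8 to 160.4 and 121.4 to 135.8. The part of the carry-over of such RNAs in the PC3 values was not tested.

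**Figure D4:**
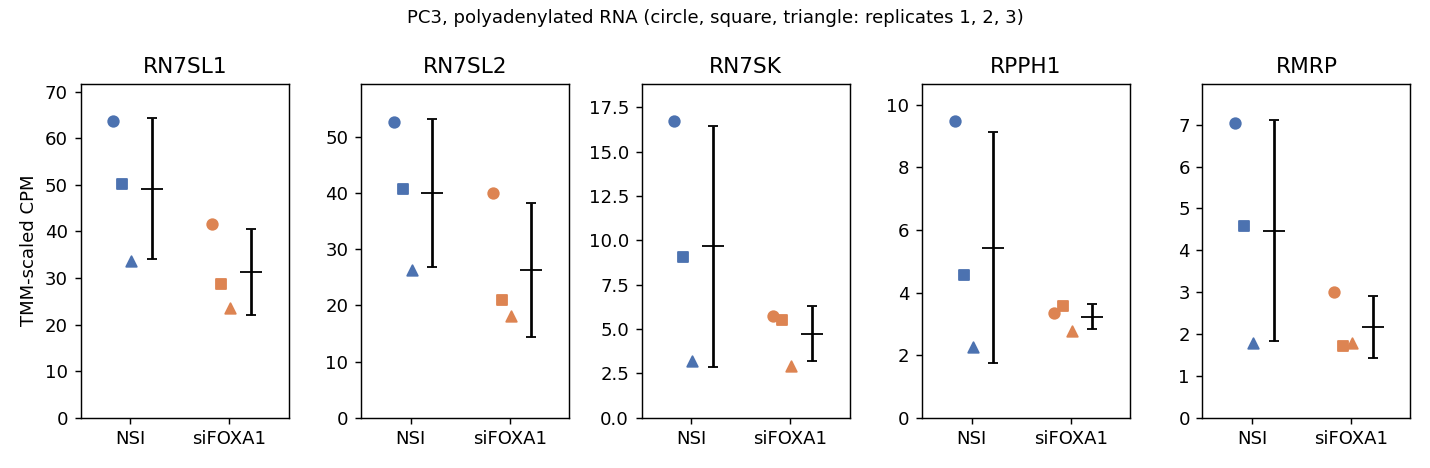
Levels of the same RNAs in PC3 polyadenylated RNA, in TMM-scaled CPM on linear axes from 0. Points are libraries (circle, square and triangle for replicates 1, 2 and 3), and the bars give the mean ± SD of 3. The NSI groups spread widely, with replicate 1 highest and replicate 3 lowest, and all groups overlap.

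The genes of the partner proteins were taken from 9 lists with 101 genes in all. In VCaP, 100 were tested, 17 were called higher and 30 lower, where 22.5% and 23.3% of all genes were, and their median log2 fold change was -0.09 against 0.02 over all genes. In PC3, 4 of 101 were called higher and 25 lower, where 15% and 12.1% of all genes were (27% in either direction), with a median of -0.14 against 0.02. The titles' replicate numbers paired the PC3 libraries, so counts with a replicate block are given beside the others: 11 were called higher and 44 lower, where 21.7% and 21% of all genes were. Without the first siFOXA1 library of PC3, 2 were called higher and 8 lower, where 8.98% and 5.63% of all genes were. In PC3, 2 were called higher without the third NSI library (9.92% of all genes) and 2 without the second siFOXA1 library (11.5%), and 7 with the library total alone (17.3%). In VCaP, 9 were called higher without the first NSI library (18.4% of all genes), 10 without the second siFOXA1 library (18.5%) and 10 with the library total alone (20.5%). The shares of all genes apply to each list below, many of which hold few genes.

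Of 8 genes of signal recognition particle proteins and their receptor, 4 were called lower in VCaP, 3 in PC3 and 0 higher in either line by edgeR. SRP72, which with SRP68 anchors to 7SL, fell from 136.4 ± 2.86 to 107.5 ± 6.23 CPM in VCaP (log2 fold change -0.34, edgeR adjusted p = 0.00188). SRPRA, the receptor subunit at the endoplasmic reticulum, fell from 111.9 ± 3.94 to 72.8 ± 4.36 CPM in VCaP (-0.62, edgeR adjusted p = 5.67e-05). In PC3 the genes of the Alu domain proteins fell, SRP9 from 188.1 ± 13.3 to 136.6 ± 5.72 CPM (-0.46, edgeR adjusted p = 0.00599) and SRP14 from 246.8 ± 23.5 to 177.3 ± 14.7 CPM (-0.48, edgeR adjusted p = 0.0105). SRP72 was called lower in PC3 too (-0.45, edgeR adjusted p = 0.0188), and SRP9 in VCaP (-0.35, edgeR adjusted p = 0.00311). SRP14 was not called in VCaP (-0.04, edgeR adjusted p = 0.565), nor was SRPRA in PC3 (-0.11, edgeR adjusted p = 0.408).

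The translocon and signal peptidase list, which acts after the particle has delivered a ribosome, was mixed. In VCaP 5 of 16 genes were called higher and 3 lower, and in PC3 1 higher and 1 lower, or 3 and 3 with the block. SEC61B, a subunit of the translocation channel, fell from 24.8 ± 1.17 to 13.3 ± 0.444 CPM in VCaP (-0.91, edgeR adjusted p = 6.94e-06), and SEC62 fell by 0.45 on the log2 scale (edgeR adjusted p = 0.000422). SPCS3, a signal peptidase subunit, rose from 51.8 ± 1.31 to 92.9 ± 8.70 CPM (0.84, edgeR adjusted p = 1.99e-05), and SSR4 rose by 0.31 (edgeR adjusted p = 0.00457). In PC3 SEC11C, a signal peptidase subunit, rose by 0.48 (edgeR adjusted p = 0.00844), and SSR2 fell by 0.27 (edgeR adjusted p = 0.0480).

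Of the 7 genes of the 7SK particle and P-TEFb, 2 were called higher and 2 lower in VCaP, and 2 higher and 0 lower by edgeR in PC3, or 2 and 1 with the block. MEPCE, which caps 7SK, fell from 40.6 ± 1.52 to 31.4 ± 1.58 CPM in VCaP (-0.37, edgeR adjusted p = 0.000874). The cyclin genes of P-TEFb rose in VCaP, CCNT1 by 0.21 (edgeR adjusted p = 0.0134) and CCNT2 by 0.21 (edgeR adjusted p = 0.0260). HEXIM2, an inhibitor of P-TEFb when bound to 7SK, fell in VCaP from 3.54 ± 0.0739 to 2.42 ± 0.272 CPM (-0.55, edgeR adjusted p = 0.00483). In PC3 HEXIM2 rose from 2.79 ± 0.590 to 5.22 ± 0.718 CPM (0.90, edgeR adjusted p = 0.00646), and its relative HEXIM1 rose by 0.39 (edgeR adjusted p = 0.0275). CDK9, the kinase, was not called in VCaP (0.07, edgeR adjusted p = 0.435) or PC3 (0.01, edgeR adjusted p = 0.962), nor was LARP7 in VCaP (0.13, edgeR adjusted p = 0.195) or PC3 (-0.11, edgeR adjusted p = 0.444).

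Among 16 genes of factors that pause elongating RNA polymerase II or work with P-TEFb, 15 were tested in VCaP, with 2 called higher and 5 lower. In PC3 0 were called higher and 4 lower by edgeR, or 3 and 7 with the block. NELFCD, a subunit of the pausing factor NELF, fell by 0.65 in VCaP (edgeR adjusted p = 1.61e-05) and by 0.41 in PC3 (edgeR adjusted p = 0.00940). AFF1, a scaffold of the super elongation complex, fell from 535.3 ± 19.2 to 326.4 ± 12.0 CPM in VCaP (-0.71, edgeR adjusted p = 3.00e-05). ELL, an elongation factor of that complex, rose by 0.55 (edgeR adjusted p = 0.000406). MLLT1 fell by 0.44 in PC3 (edgeR adjusted p = 0.00594).

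Proteins of RNase P and RNase MRP were encoded by 11 tested genes, of which 2 were called lower in VCaP and 4 in PC3, or 7 in PC3 with the block, and 0 higher in either by edgeR. POP1, the largest protein of both enzymes, was at 19.3, 16.9 and 19.8 CPM in VCaP NSI and 12.5, 13.6 and 12.6 CPM in siFOXA1. It fell by 0.53 there (SE 0.08, edgeR adjusted p = 0.000660). In PC3 POP1 fell from 14.6 ± 0.214 to 9.30 ± 0.343 CPM (-0.65, edgeR adjusted p = 0.00109). POP7, a subunit that binds both RNAs, fell by 0.38 in VCaP (edgeR adjusted p = 0.00582), and RPP38 fell by 0.46 in PC3 (edgeR adjusted p = 0.0152). Mitochondrial RNase P, which works without an RNA, had 0 of 3 genes called in VCaP and TRMT10C lower in PC3 (-0.35, edgeR adjusted p = 0.0211), or 2 lower with the block.

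The largest change of any tested partner gene, in either line, was in a subunit of RNA polymerase III. Of 13 subunit genes, 5 were called higher and 3 lower in VCaP, and 0 higher and 6 lower in PC3 by edgeR, or 1 and 8 in PC3 with the block. POLR3G was at 3.54, 4.16 and 4.38 CPM in VCaP NSI and 12.4, 12.7 and 12.5 CPM in siFOXA1, with the groups far apart (log2 fold change 1.64, SE 0.10, edgeR adjusted p = 1.98e-06). POLR3G and POLR3GL are alternative subunits of the enzyme. POLR3GL was called higher too, by 0.46 (edgeR adjusted p = 0.0463), at a level near 1 CPM (0.930 ± 0.110 in NSI), and was described after its values were seen. In VCaP POLR3B fell by 0.51 (edgeR adjusted p = 8.49e-05), and POLR1D, shared with RNA polymerase I, fell by 0.25 (edgeR adjusted p = 0.00408). Both were called lower in PC3 too, POLR3B at -0.39 (edgeR adjusted p = 0.0149) and POLR1D at -0.43 (edgeR adjusted p = 0.00866). In PC3 POLR3E fell by 0.61 (edgeR adjusted p = 0.00132), and POLR3G was not called in the fit without the block (0.22, edgeR adjusted p = 0.0698).

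Of 19 genes for initiation and regulation of RNA polymerase III, 2 were called higher and 10 lower in VCaP. In PC3 1 was called higher and 5 lower, or 1 and 11 with the block. SNAPC2, a subunit of the complex that binds the upstream promoters of RN7SK, RPPH1 and RMRP, fell from 6.44 ± 1.00 to 2.99 ± 0.143 CPM in VCaP (-1.11, edgeR adjusted p = 0.000125). It was called lower in PC3 too (-0.47, edgeR adjusted p = 0.0107). In VCaP SNAPC1 of the same complex rose by 0.47 (edgeR adjusted p = 0.00190). GTF3C6, a subunit of TFIIIC, which binds promoter elements inside genes, fell by 0.72 (edgeR adjusted p = 3.12e-05). ZNF143, an activator of such upstream promoters, rose by 0.21 in VCaP (edgeR adjusted p = 0.0196) and fell by 0.51 in PC3 (edgeR adjusted p = 0.00415). SNAPC4 fell by 0.62 in PC3 (edgeR adjusted p = 0.00424). SNAPC3 rose by 0.31 in PC3 (edgeR adjusted p = 0.0246) and fell in VCaP (-0.49, edgeR adjusted p = 0.000150).

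The last list held 8 genes of proteins that bind or trim such RNAs, with 1 called higher and 1 lower in VCaP and 0 higher and 1 lower in PC3 by edgeR, or 1 and 2 in PC3 with the block. TROVE2, the Ro protein of Y RNAs, rose by 0.32 in VCaP (edgeR adjusted p = 0.00260), and TOE1, a 3′ exonuclease of small nuclear RNAs, fell by 0.36 (edgeR adjusted p = 0.00806). XPO5, an export factor, fell by 0.33 in PC3 (edgeR adjusted p = 0.0332).

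**Figure D5:**
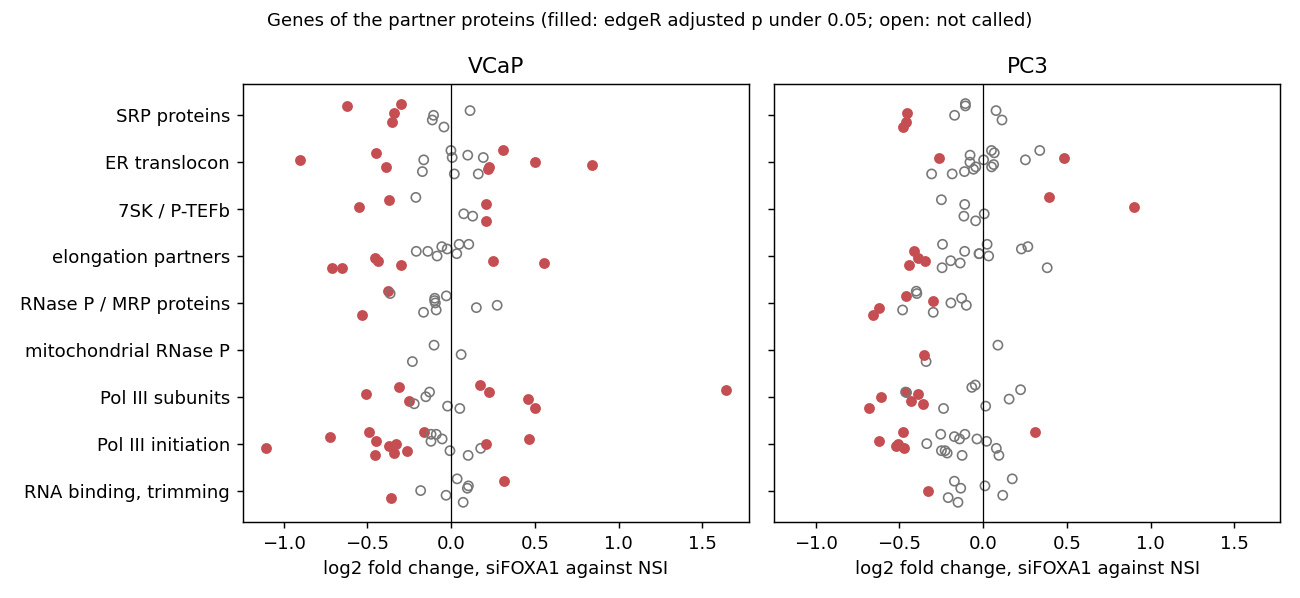
Log2 fold changes of siFOXA1 against NSI for the tested genes of 9 partner protein lists, in VCaP (left) and PC3 (right), 1 point a gene. Filled points had an edgeR adjusted p under 0.05. POLR3G at 1.64 lies farthest right in VCaP, and in PC3 none of the 11 RNase P and MRP protein genes lies above 0.

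The genes most like each RNA across the 6 VCaP libraries were taken by Pearson correlation of log2 CPM among 11796 genes whose mean reached 5 CPM. The points share depth, kit and the siRNA groups, and with 6 points high values are common, so they are a description. For the 7SL sum they were CLTB (0.995), UBE2Q1 (0.993) and DAP3 (0.993). For RN7SK they were the small nucleolar RNA row SNORA74A (0.992), BOLA2B (0.990) and the Cajal body RNA row SCARNA7 (0.989). RPPH1 was most like a Y_RNA row (ENSG00000200314.1, 0.993), ZNF16 (0.991) and GLT25D1 (0.991), and RMRP was most like TRAF2 (0.992), GLT25D1 (0.988) and MYL6 (0.986).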

How the data were processed

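Per the file headers, the authors counted fragments per gene with featureCounts, summing exons by gene (GENCODE v28lift37 basic, GRCh37). Fragments with several mapping places or overlapping rows were divided among them. These estimated counts were deposited without normalization. Per the file headers, PC3 counts ignored strand and VCaP counts used the reverse strand. The submitters' processing notes name STAR 2.7.3a and Subread 2.0.0.

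Counts were rounded to whole numbers. VCaP and PC3 were fitted apart, 6 libraries each, in R 4.3.3 and edgeR 4.0.16, using filterByExpr, TMM factors and a two-sided quasi-likelihood test. Benjamini-Hochberg adjustment covered every tested gene. Genes were called at an adjusted p under 0.05. SE is the log2 fold change divided by the square root of F. DESeq2 1.42.0 was an alternative. The script was tested on simulated data. Sequences were aligned with Biopython 1.88 and figures drawn with matplotlib.

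Members and gene lists were chosen with earlier results of these data known. A test of the members in PC3 had been planned, but its p-values are not given, since the PC3 contrast was part of that choice. Named list genes were, per list, line and direction, up to 2 calls with the smallest adjusted p, a mean of at least 1 CPM and groups that did not overlap. Other named genes were members, FOXA1 and the 3 genes most like each RNA; genes named beside them were chosen after their values were seen. Some genes that the rule named and some sequences are not reported here. Replicates of a group differed by a chi-square per degree of freedom of 9.80 to 141, so none was a copy.

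Replicate numbers recur in both siRNA groups, and no label says what they stand for. They were taken from the titles: the names of the deposited files carry other numbers for every PC3 library and for the third of each VCaP group, which match across the siRNA groups in the same pairs. Deviations from the group means in same-numbered PC3 libraries correlated across genes at 0.52, 0.64 and 0.26, so the block was applied there as a paired analysis. Errors and p-values printed for single genes in PC3 come from the fit without the block, unless the block is named.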

Additional observations from a re-analysis of the deposited data

Results flagged for a closer look

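Partner genes called in opposite directions in VCaP and PC3 stood out. The VCaP minus PC3 difference in log2 fold change, from an edgeR fit over all 12 libraries, was 0.70 (SE 0.11) for POLR1C, 0.74 (SE 0.11) for ZNF143, -1.43 (SE 0.22) for HEXIM2 and -0.78 (SE 0.11) for SNAPC3. These genes were taken because their calls were opposite, so the differences are a description and no p-value is given for them. POLR1C, a subunit shared by RNA polymerases I and III, was at -0.46 in PC3 and 0.22 in VCaP.

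For RN7SL1 and RN7SK, all 3 siFOXA1 libraries lay above the NSI mean in VCaP and all 3 lay below it in PC3. The VCaP minus PC3 difference, here between the separate fits of the lines, was 0.91 for RN7SL1 and 1.20 for RN7SK. It was 1.05 for RMRP, 0.85 for RN7SL2 and 0.79 for RPPH1, so it was not particular to RN7SL1 and RN7SK. This difference was not tested, since the VCaP values, with PC3 as the contrast, chose the members. Cell line, kit, dose, medium, strand counting and the depth of the knockdown cannot be told apart in any of these differences. FOXA1 was at 16.5% of NSI in VCaP and 63.8% in PC3.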

How the results depend on the processing

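Of 264 recomputed values of 22 results, 247 stayed within 1.5 times for counts of calls and within the replicate SD for log2 fold changes of members. For the members this limit is wide, and all 12 alternatives of each passed it. RPPH1 in PC3 passed at -0.076 against -0.75, as did the sign changes of RPPH1 and RMRP in VCaP. The count therefore says little about how steady the members' values were. The replicate block in PC3 called 11297 genes, 5563 of them lower, with 11 partner genes higher and 44 lower. With this block the log2 fold changes were -0.65 (SE 0.07) for RN7SL1, -0.63 (SE 0.10) for RN7SL2 and -0.64 (SE 0.08) for their sum. RN7SK was at -0.82 (SE 0.21), RPPH1 at -0.54 (SE 0.26) and RMRP at -0.90 (SE 0.23). With the library total alone, 7 partner genes were called higher in PC3 and 10 in VCaP.

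With no filter on low counts, the PC3 values of the members lay between -1.07 and -0.63. Leaving out each replicate in turn gave 3945 to 7592 calls in PC3 (2425 to 4327 higher, 1520 to 3535 lower), with 2 to 6 partner genes higher and 8 to 28 lower, and 9 to 15 partner genes higher in VCaP. The PC3 values ran from -0.92 to -0.43 for RN7SL1, -1.04 to -0.36 for RN7SL2, -0.97 to -0.40 for their sum, -1.49 to -0.37 for RN7SK, -1.12 to -0.076 for RPPH1 and -1.43 to -0.55 for RMRP. The cause of these changes was not tested. In VCaP the same-numbered libraries correlated at 0.12, 0.02 and 0.40, so they were not taken as pairs, and the replicate block there called 11482 genes against 10501 without it.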
